A study of Rattus norvegicus with 5 samples.

Results

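The enzymes described here break down amino acids in the liver, pass their one-carbon units and sulfur onwards, and turn the released nitrogen into urea. They were taken from a list of 55 genes by the gene symbols of the array's annotation. No value served as a filter, but the list was chosen with earlier results of these data known. Of the 55, 38 had a probe set with a single gene symbol, out of 7589 genes measured in this way. A probe set is a group of array probes summarised into 1 value. The other 17 were Nags, Glul, Uroc1, Afmid, Sdsl, Shmt1, Gldc, Amt, Ahcy, Bckdha, Bckdhb, Dbt, Pcca, Mut, Aass, Prodh and Aldh4a1, which were not analysed here.

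Livers came from 4-month-old male rats of 2 inbred strains fed standard chow, PD and PD.SHR4, which the series text calls PD.SHR4a. PD, the polydactylous rat, is the progenitor strain. PD.SHR4 is its congenic derivative, in which part of chromosome 4 comes from SHR, the spontaneously hypertensive rat, a strain deficient in the fatty acid transporter Cd36. By its title, the series relates these profiles to the glucose tolerance of such congenic rats. Labelled cDNA of 8 rats was pooled for each strain and hybridised to Affymetrix Rat Exon 1.0 ST arrays, 3 for PD and 2 for PD.SHR4. The arrays of a strain are therefore not shown to hold different rats, and every p-value below measures the spread between arrays, which may be technical. In RefSeq's gene table for assembly GRCr8, none of the 38 genes lies on chromosome 4.

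When amino acids are broken down, transaminases move their amino groups to glutamate and aspartate, and glutamate dehydrogenase frees ammonia. Cps1 and Otc, in mitochondria, and Ass1, Asl and Arg1, in the cytosol, then build urea. The carbon skeletons leave by separate branches for histidine, the aromatic amino acids, the sulfur amino acids and the branched-chain amino acids. Urea synthesis and glutaminase are known from hepatocytes around the portal vein, and glutamine synthesis and ornithine aminotransferase from those around the central vein.

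No enzyme of the list passed the test between the strains, and the data show small differences in both directions. Argininosuccinate lyase and both alanine transaminases stood highest in the congenic strain relative to PD, and beta-ureidopropionase, ornithine transcarbamylase and cystathionine gamma-lyase stood lowest. Differences ran from -0.44 to 0.84 on the log2 scale, PD.SHR4 minus PD, with a median of 0.076 over the 38 enzymes against 0.00020 over all 8797 probe sets. Of the 38, 24 were above 0 and 14 below. With limma and Benjamini-Hochberg adjustment over all probe sets at a threshold of 0.05, 0 of 38 passed, against 0.932% of all probe sets. At an unadjusted p under 0.05, 5 of 38 did (13.2%), 4 higher and 1 lower, against 13.8% of all probe sets. The unadjusted share of the enzymes was thus near that of the array as a whole. With an intensity-dependent variance trend and robust shrinkage, or with weighted arrays, Asl and Gpt passed and the other 36 did not.

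The spread between arrays limits how small a difference could be seen. The median standard deviation of an enzyme was 0.16 over the PD arrays and 0.076 over the congenic arrays, and the median half-width of the 95% interval of a difference was 0.37. For 35 of the 38 enzymes this interval lay wholly within a log2 difference of 1 in either direction, and for 22 it lay within 1.5-fold. Only Asl had an estimate beyond 1.5-fold, a share of 2.63%, against 7.30% of all genes.

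Arrays of the strains did not overlap for 15 of the 38 enzymes. In 12 of these (31.6%) both congenic arrays were above every PD array, against 14.8% of all probe sets, and in 3 (7.89%) both were below, against 17.1%. The 12 were Cps1, Ass1, Asl, Arg1, Glud1, Gpt, Gpt2, Hal, Ftcd, Tdo2, Haao and Mccc1, and the 3 were Otc, Pccb and Upb1. These counts are a description of 5 arrays and carry no test.

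**Figure D1:**
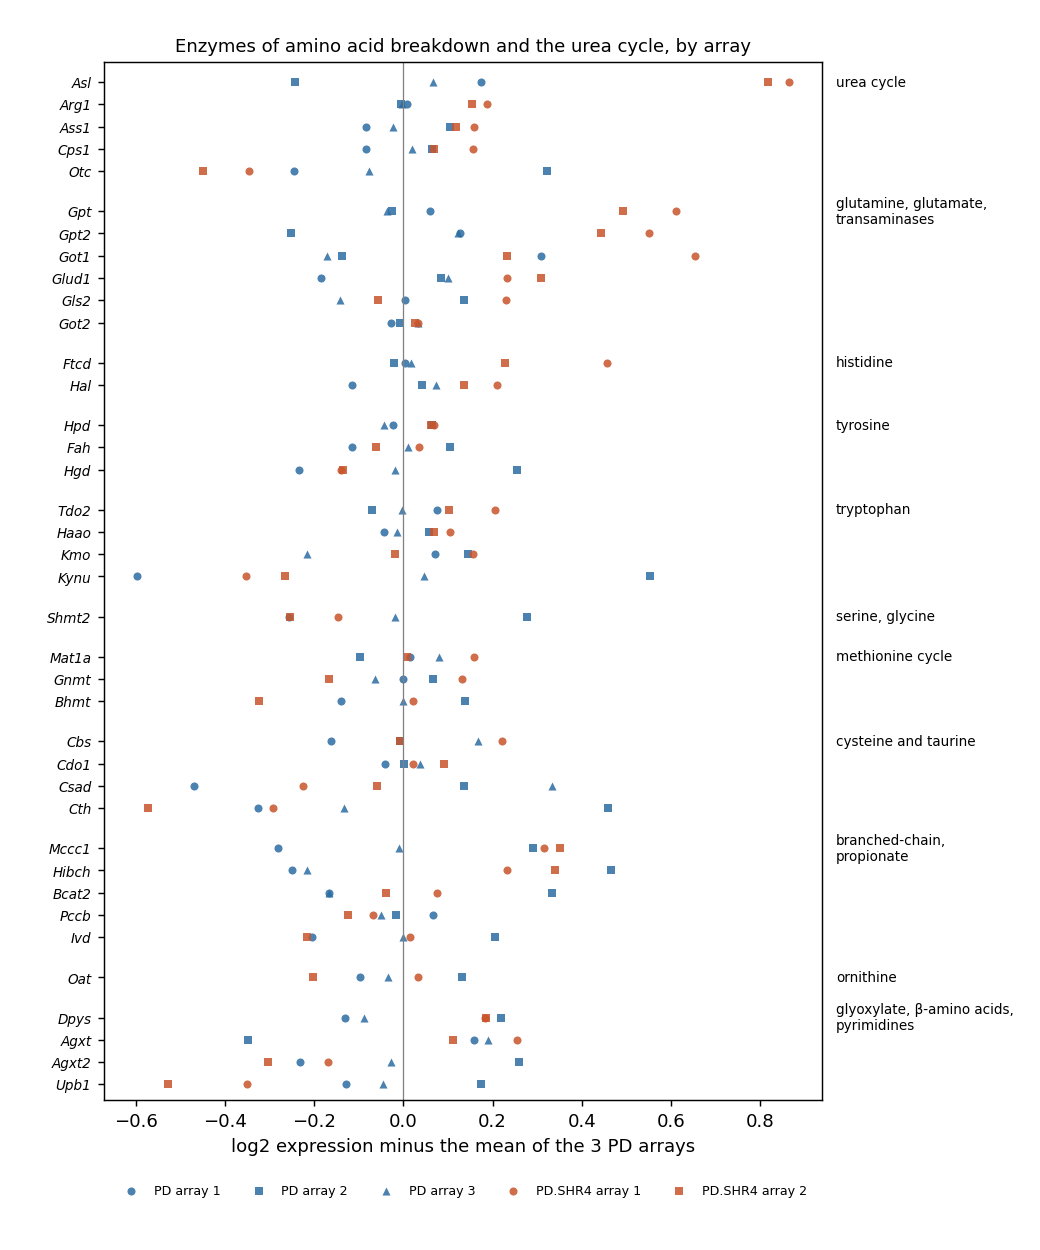
Log2 expression of each of the 38 enzymes in every array, minus that gene's mean over the 3 PD arrays (x axis), with genes grouped by branch (y axis). PD arrays are blue and PD.SHR4 arrays orange, each with a marker of its own. Asl, Gpt and Gpt2 show both congenic arrays right of all PD arrays, and the blue squares of PD array 2 lie farthest from the other PD arrays in many rows.

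Single arrays differed over the list as a whole. PD array 2 held the highest PD value for 22 of the 38 enzymes, against 48.3% of all genes, and PD array 1 the lowest for 24. Of the congenic arrays, array 1 was the higher one for 30 enzymes and array 2 for 8, whereas array 1 was higher for 52.0% of all genes. The median level of an enzyme relative to its PD mean was -0.090, 0.095 and -0.011 in PD arrays 1 to 3 and 0.14 and 0.018 in congenic arrays 1 and 2. Congenic array 2 thus lay between PD arrays 2 and 3. The median difference over the list was 0.018 without congenic array 1 and 0.14 without congenic array 2.

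In the urea cycle, 4 of the 5 measured enzymes were above 0 and 1 below, none passed the test, and the median difference was 0.14. The arrays did not overlap for any of the 5 (100%), against 31.9% of all probe sets in either direction. Asl, which splits argininosuccinate into arginine and fumarate, measured 11.17, 10.76 and 11.06 in PD arrays 1 to 3 and 11.86 and 11.82 in the congenic arrays. Both congenic arrays were above all PD arrays. The difference was 0.84 ± 0.16 (SE; 95% interval 0.45 to 1.23), a 1.79-fold higher level, with an adjusted p of 0.0838 in limma. Its adjusted p was 0.0409 with the variance trend, 0.0100 with array weights and 0.0754 to 0.452 when an array was left out.

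Otc, the mitochondrial enzyme that joins ornithine and carbamoyl phosphate, differed in the other direction. It measured 10.23, 10.80 and 10.40 in PD and 10.13 and 10.03 in PD.SHR4, with both congenic arrays below all PD arrays. The difference was -0.40 ± 0.19 (SE; adjusted p = 0.449, limma), and -0.24 when PD array 2, the highest, was left out. Arg1, the arginase that releases urea, was almost constant in PD, at 11.25, 11.23 and 11.24, and measured 11.43 and 11.39 in PD.SHR4. Its difference of 0.17 ± 0.11 (SE; adjusted p = 0.584, limma) was small although the strains did not overlap. For Cps1, which fixes ammonia at the entry of the cycle, and Ass1, which makes argininosuccinate, the differences were 0.11 ± 0.12 and 0.14 ± 0.12 (SE).

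Among the enzymes that handle glutamate and amino groups, all 6 measured were above 0, with a median difference of 0.36, the highest of the 11 branches. None passed the test, and 3 of the 6 had no overlap between strains (50%, against 31.9% of all probe sets). Gpt, an alanine transaminase, measured 10.30, 10.22 and 10.21 in PD and 10.85 and 10.74 in PD.SHR4. The PD arrays lay close together and both congenic arrays stood above them. The difference was 0.55 ± 0.12 (SE; 95% interval 0.27 to 0.84; 1.47-fold), with an adjusted p of 0.107 in limma. It was 0.0409 with the variance trend, 0.0158 with array weights and 0.121 to 0.547 when an array was left out.

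Gpt2, the second alanine transaminase gene, whose product works in mitochondria, measured 10.15, 9.77 and 10.14 in PD and 10.57 and 10.46 in PD.SHR4. PD array 2 was the lowest, and both congenic arrays were above all PD arrays. The difference was 0.50 ± 0.16 (SE; 1.41-fold; adjusted p = 0.252, limma). Got1, the cytosolic aspartate transaminase, measured 10.49, 10.05 and 10.01 in PD and 10.84 and 10.42 in PD.SHR4. Here congenic array 2 lay below PD array 1, so the strains overlapped, and the difference was 0.44 ± 0.21 (SE; adjusted p = 0.446, limma), or 0.23 when congenic array 1 was left out.

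Got2, the mitochondrial partner of Got1, differed least in this branch, at 0.030 ± 0.11 (SE). The interval of -0.24 to 0.30 does not contain a difference as large as that measured for Gpt. The difference between these genes was not tested. Glud1, glutamate dehydrogenase, measured 11.38, 11.65 and 11.67 in PD and 11.80 and 11.88 in PD.SHR4. Both congenic arrays were above the PD arrays, by less than the distance of PD array 1 from the other PD arrays, and the difference was 0.27 ± 0.14 (SE; adjusted p = 0.480, limma). The remaining gene, the liver glutaminase Gls2, overlapped between the strains.

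**Figure D2:**
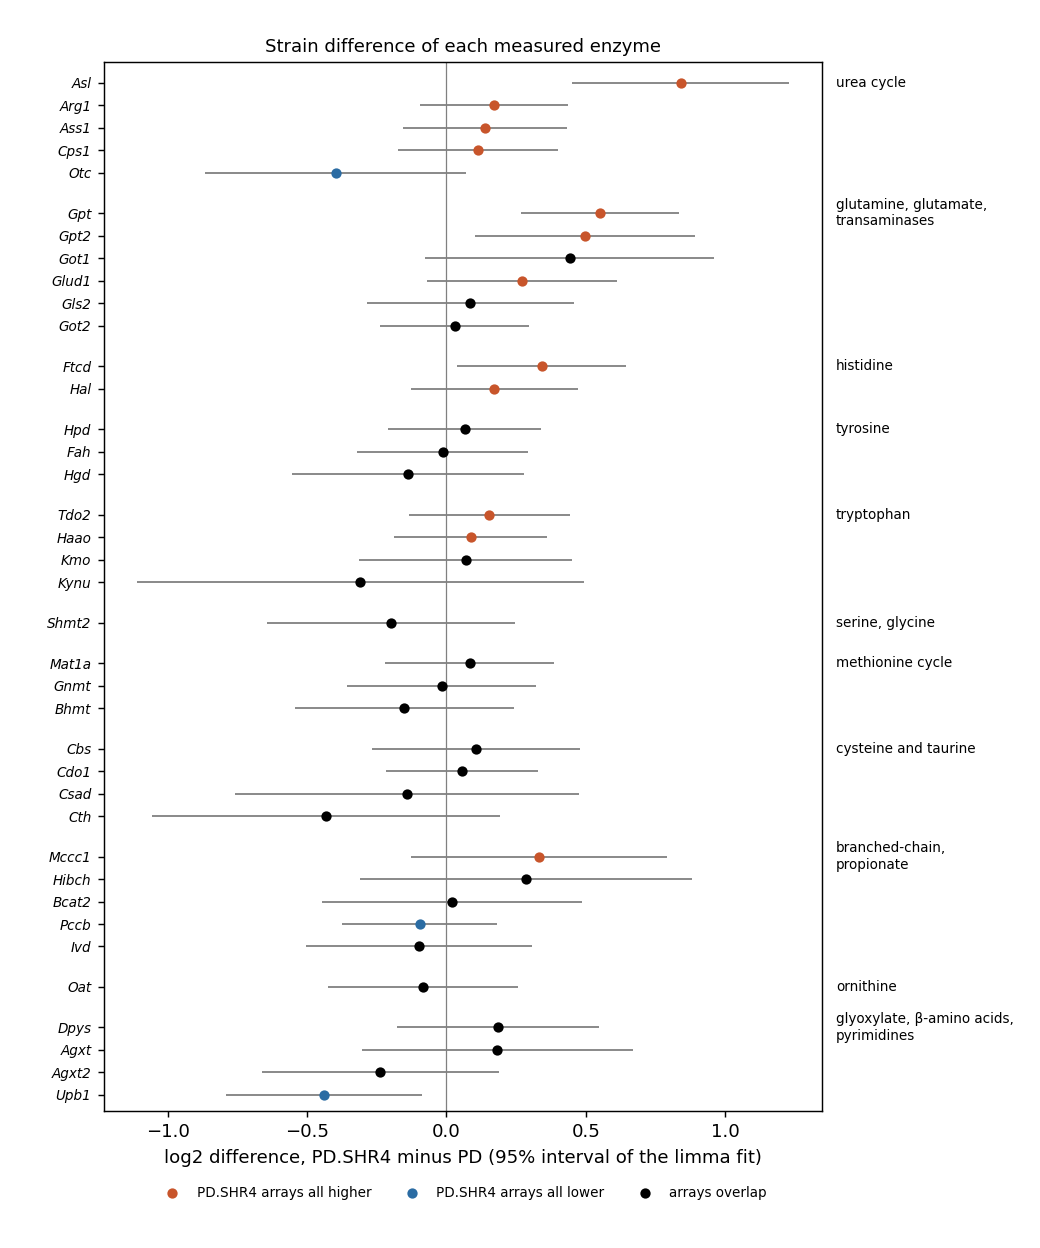
Log2 difference PD.SHR4 minus PD for each of the 38 enzymes (x axis) by branch (y axis), with the 95% interval of the limma fit as a grey bar. Orange marks genes whose congenic arrays were all higher, blue all lower and black overlapping arrays; the intervals of Asl, Gpt, Gpt2 and Ftcd lie above 0 and that of Upb1 below it, before adjustment for the number of probe sets.

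Both measured enzymes of histidine breakdown were above 0 without overlap, with a median difference of 0.26, and neither passed the test. Arrays did not overlap in either direction for 31.9% of all probe sets. Ftcd, which passes the formimino group of histidine to folate, measured 10.14, 10.12 and 10.15 in PD and 10.59 and 10.36 in PD.SHR4. The congenic arrays differed from each other by more than the PD arrays did, and the difference was 0.34 ± 0.12 (SE; adjusted p = 0.302, limma). Hal, histidine ammonia-lyase, which takes the first step, measured 10.43, 10.59 and 10.62 in PD and 10.76 and 10.68 in PD.SHR4. Its congenic arrays were above all PD arrays by a small margin, at a difference of 0.17 ± 0.12 (SE; adjusted p = 0.632, limma).

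The listed enzymes of the aromatic amino acids gave smaller values. In tyrosine breakdown 1 of 3 enzymes was above 0, with a median difference of -0.012. All 3 overlapped between strains, whereas 31.9% of all probe sets did not. Hpd, which makes homogentisate, measured 0.066 ± 0.11 (SE) and Hgd, which opens its ring, -0.14 ± 0.17, and Fah, the last enzyme of the path, lay between them. Tat, tyrosine aminotransferase, belongs to a further list and not to these 3. Both its congenic arrays were below all PD arrays, at -0.61 ± 0.21 (SE; adjusted p = 0.27, limma). In tryptophan breakdown 3 of 4 enzymes were above 0, with a median of 0.078. Tdo2, the dioxygenase that commits tryptophan to the kynurenine path, measured 12.16, 12.02 and 12.08 in PD and 12.29 and 12.19 in PD.SHR4. Its arrays did not overlap and its difference was 0.15 ± 0.12 (SE; adjusted p = 0.659, limma). Kynu, kynureninase, had the widest interval of the list, -1.11 to 0.49 around a difference of -0.31, since the PD arrays alone spanned 9.72 to 10.87. Its congenic arrays lay inside that span, and the difference was -0.61 when PD array 1 was left out and -0.033 when PD array 2 was.

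For the enzymes of one-carbon units, methionine and cysteine, the arrays overlapped in all 8 measured. Of all probe sets, 31.9% did not overlap, and 8 genes are too few to read this count as a trait of these branches. Shmt2, the mitochondrial serine hydroxymethyltransferase and the sole measured gene of the serine and glycine branch, measured -0.20 ± 0.18 (SE). The methionine cycle had a median of -0.017 over 3 enzymes, with Mat1a, which makes S-adenosylmethionine in liver, at 0.083 ± 0.12 and Bhmt, which remethylates homocysteine from betaine, at -0.15 ± 0.16 (SE). This median was -0.17 without congenic array 1 and 0.13 without congenic array 2.

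Cysteine and taurine synthesis had a median of -0.043 over 4 enzymes. Cth, which releases cysteine from cystathionine, measured 11.45, 12.23 and 11.64 in PD and 11.48 and 11.20 in PD.SHR4. PD array 2 stood well above the other 4 arrays, and congenic array 1 lay inside the PD range. The difference was -0.43 ± 0.25 (SE; adjusted p = 0.550, limma), or -0.20 when PD array 2 was left out. The enzyme before it, Cbs, measured 0.11 ± 0.15 (SE).

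In the branched-chain and propionate branch, 3 of 5 enzymes were above 0 and 2 below, and the median was 0.019. It turned on single arrays, at 0.19 when PD array 2 was left out and -0.064 when PD array 3 was. Mccc1, a subunit of the carboxylase of leucine breakdown, measured 8.09, 8.66 and 8.36 in PD and 8.68 and 8.72 in PD.SHR4. Both congenic arrays were just above PD array 2, and the difference was 0.33 ± 0.19 (SE; adjusted p = 0.528, limma), or 0.19 when PD array 1 was left out. Hibch, a hydrolase of valine breakdown, measured 7.14, 7.86 and 7.18 in PD and 7.63 and 7.73 in PD.SHR4. PD array 2 was the highest of all 5 arrays, so the strains overlapped at a difference of 0.29 ± 0.24 (SE; adjusted p = 0.699, limma), or 0.16 and 0.52 when PD array 1 or 2 was left out. The lowest of the branch was Ivd, the isovaleryl-CoA dehydrogenase of leucine breakdown, at -0.100 ± 0.16 (SE). The genes Bckdha, Bckdhb and Dbt of the branched-chain ketoacid dehydrogenase are among those not analysed here, so the committed step of the branch was not measured.

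Oat, the ornithine aminotransferase, was the only measured gene of the lysine, proline and ornithine branch, at -0.084 ± 0.14 (SE), with overlapping arrays. The last branch joins glyoxylate detoxification with the breakdown of pyrimidines and beta-amino acids, with 2 of 4 genes above 0 and a median of -0.027. Upb1, beta-ureidopropionase, the last enzyme of pyrimidine breakdown, measured 11.42, 11.72 and 11.50 in PD and 11.20 and 11.02 in PD.SHR4. Both congenic arrays were below all PD arrays. Its difference of -0.44 ± 0.14 (SE; 95% interval -0.79 to -0.09; adjusted p = 0.257, limma) was the lowest of the 38. Dpys, the dihydropyrimidinase that acts just before Upb1, measured 10.52, 10.87 and 10.56 in PD and 10.83 and 10.84 in PD.SHR4. Its congenic arrays lay just below PD array 2, and the difference was 0.19 ± 0.15 (SE; adjusted p = 0.678, limma), of opposite sign to that of Upb1.

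Agxt2, a mitochondrial aminotransferase that acts on beta-aminoisobutyrate, measured 10.14, 10.64 and 10.35 in PD and 10.21 and 10.07 in PD.SHR4. The strains overlapped at a difference of -0.24 ± 0.17 (SE; adjusted p = 0.648, limma), or -0.11 when PD array 2 was left out. The 12 enzymes that the rule for described genes left out were Cps1, Ass1, Gls2, Fah, Kmo, Haao, Gnmt, Cdo1, Csad, Bcat2, Pccb and Agxt. Their differences ran from -0.14 to 0.18, and none passed the test. For 4 of them, Cps1, Ass1, Haao and Pccb, the arrays did not overlap (33.3%, against 31.9% of all probe sets).

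**Figure D3:**
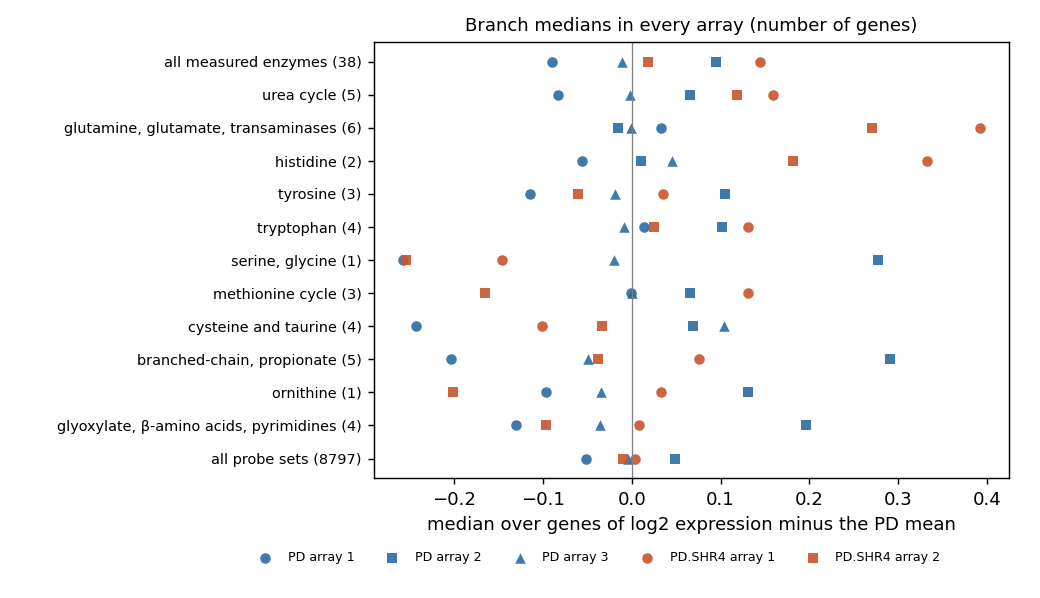
Median over the genes of each branch of log2 expression minus the PD mean of the gene (x axis), in each of the 5 arrays, for all 38 enzymes, the 11 branches and all 8797 probe sets (y axis; number of genes in brackets). Both congenic arrays lie right of every PD array in the urea cycle, the glutamate and transaminase branch and the histidine branch, congenic array 1 alone does so in the tryptophan branch and the methionine cycle, and neither does in the other branches.

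Set side by side, the branches fell into those whose congenic arrays were both above the PD arrays and those whose arrays mixed. The branch medians of the congenic arrays were 0.39 and 0.27 for glutamate and transaminases, 0.33 and 0.18 for histidine, and 0.16 and 0.12 for the urea cycle, against highest PD values of 0.032, 0.045 and 0.065. In the branched-chain branch they were 0.075 and -0.038, within a PD range of -0.20 to 0.29, and in the cysteine and taurine branch -0.10 and -0.034, within -0.24 to 0.10. With any 1 array left out, the differences of the glutamate, histidine and urea cycle branch medians were 0.27 to 0.39, 0.18 to 0.33 and 0.097 to 0.17. For histidine both genes, and for the urea cycle 4 of 5, were above 0 without overlap. The sign of these 2 branch medians therefore could not turn, and their ranges show size only. In the glutamate branch 3 of 6 genes did not overlap, so its sign was not fixed in this way. Histidine rests on 2 genes and the ornithine and serine branches on 1 each. No test was made between branches, since genes are not replicates of a strain.

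Other enzymes and carriers of amino acid metabolism were taken from a list of 69 genes, 36 of them measured. Of these 18 were above 0 and 18 below, with a median of -0.016, and none passed limma's adjusted threshold. At an unadjusted p under 0.05 there were 5, a share of 13.9% beside 13.8% of all probe sets. The 5 were Acmsd, Psph, Pipox, Chdh and Tat, the last given above with tyrosine. The lowest value was that of Acmsd, the decarboxylase that draws tryptophan carbon away from NAD synthesis. It measured 8.69, 9.37 and 8.84 in PD and 7.68 and 7.17 in PD.SHR4, both far below the PD arrays. The difference was -1.54 ± 0.26 (SE; 2.90-fold lower; adjusted p = 0.0693, limma). Its adjusted p was 0.0101 to 0.0494 in 6 alternative fits to all 5 arrays, and 0.412 at the highest with an array left out.

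Psph, the phosphatase that ends serine synthesis, measured 6.79, 6.69 and 6.80 in PD and 6.16 and 6.29 in PD.SHR4, a difference of -0.54 ± 0.12 (SE; adjusted p = 0.119, limma). Both congenic arrays were below all PD arrays. Pipox, which oxidises pipecolate and sarcosine, measured 9.75, 10.02 and 9.78 in PD and 10.43 and 10.45 in PD.SHR4, at 0.59 ± 0.13 (SE; adjusted p = 0.128, limma). Chdh, choline dehydrogenase, which makes the betaine used by Bhmt, measured 0.45 ± 0.15 (SE; adjusted p = 0.259, limma). For Pipox and Chdh both congenic arrays were above all PD arrays. All 3 kept this side of the threshold except with array weights, where their adjusted p was 0.0129 to 0.0385.

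Of 17 listed regulators of amino acid breakdown, 12 were measured, 3 above 0 and 9 below, and none passed limma's adjusted threshold. At an unadjusted p under 0.05 there was 1 (8.33%, against 13.8% of all probe sets), Atf4, the transcription factor of the amino acid response. It measured 10.43, 10.35 and 10.51 in PD and 10.12 and 9.89 in PD.SHR4, at -0.43 ± 0.13 (SE; adjusted p = 0.231, limma), and passed with array weights alone (adjusted p = 0.0385). Nr1h4, the bile acid receptor, measured -0.32 ± 0.14 (SE), Creb1, a cyclic AMP responsive factor, -0.37 ± 0.18, and Cebpb, a hormone-responsive liver factor, -0.27 ± 0.14. Arrays did not overlap between strains for 7 of the 12 regulators (58.3%, against 31.9% of all probe sets), 4 lower and 3 higher in PD.SHR4. Lower were Atf4, Nr1h4, Cebpb and Gcgr, the last at -0.20 ± 0.12 (SE). Higher were Klf15, Cebpa and Hnf4a, at 0.23 ± 0.13, 0.18 ± 0.12 and 0.12 ± 0.11 (SE). The arrays of Creb1 overlapped.

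**Figure D4:**
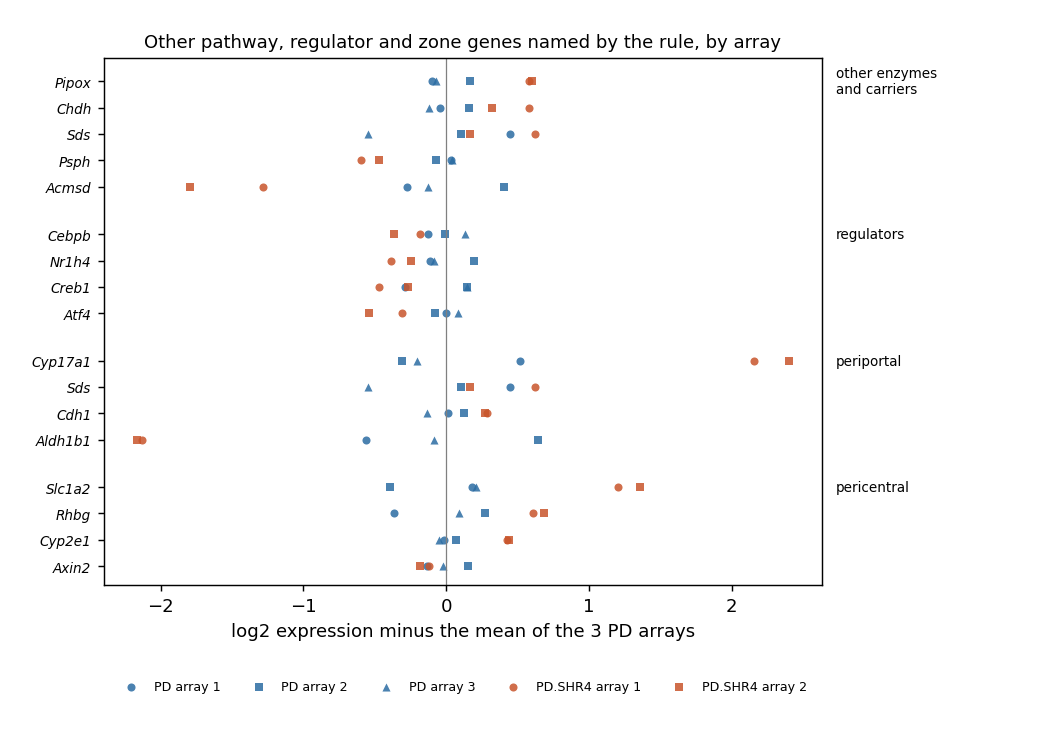
Log2 expression minus the mean of the 3 PD arrays (x axis) in every array for the other enzymes, regulators and zone genes chosen by the rule for described genes (y axis; Sds is in 2 lists). Cyp17a1, Slc1a2, Rhbg and Cyp2e1 have both congenic arrays right of the PD arrays, and Aldh1b1 and Acmsd far left of them.

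Genes known from the zones of the liver lobule had values on both sides of 0. Of 9 measured periportal genes, 1 rose, 0 fell and 8 did not pass, with a median of -0.071. Of all probe sets, 0.932% passed in either direction. Cyp17a1, the steroid 17-alpha-hydroxylase, rose from 5.50, 4.68 and 4.78 in PD to 7.14 and 7.39 in PD.SHR4 (2.28 ± 0.27 SE; adjusted p = 0.0392, limma). It no longer passed when PD array 2 (adjusted p = 0.0623, limma), PD array 3 (0.117), congenic array 1 (0.248) or congenic array 2 (0.369) was left out. Aldh1b1, a mitochondrial aldehyde dehydrogenase, had the opposite sign, at -2.15 ± 0.34 (SE; adjusted p = 0.0619, limma), and passed in 7 of 11 alternative fits, among them that without PD array 2 (0.0499). Cdh1, E-cadherin, measured 0.28 ± 0.13 (SE) and Sds, the serine dehydratase, 0.40 ± 0.31.

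Of 7 measured pericentral genes, 6 were above 0 (85.7%, against 50% of all probe sets), with a median of 0.43. None passed limma's adjusted threshold, while 3 had an unadjusted p under 0.05, a share of 42.9% beside 13.8% of all probe sets. Slc1a2, a glutamate transporter, measured 8.23, 7.65 and 8.26 in PD and 9.26 and 9.41 in PD.SHR4, at 1.28 ± 0.22 (SE; 2.43-fold; adjusted p = 0.0708, limma). It passed in 4 of 11 alternative fits, with adjusted p of 0.00973 to 0.0464. Rhbg, an ammonium transporter, measured 6.51, 7.15 and 6.97 in PD and 7.49 and 7.56 in PD.SHR4, at 0.65 ± 0.21 (SE; adjusted p = 0.248, limma; 0.0460 with array weights). Cyp2e1, the ethanol-inducible cytochrome P450, measured 0.43 ± 0.11 (SE; adjusted p = 0.169, limma), and 0.0369 and 0.0222 were its adjusted p with the variance trend and with array weights. In all 3 both congenic arrays were above all PD arrays (42.9% of the 7, against 14.8% of all probe sets). The other 4 had overlapping arrays. Of these Axin2, a target of Wnt signalling, measured -0.15 ± 0.13 (SE), and Cyp7a1, Tbx3 and Cyp1a2 measured 0.44 ± 0.41, 0.12 ± 0.30 and 0.054 ± 0.11 (SE). Oat, also pericentral, had the difference given above. Glutamine synthetase, the classical pericentral gene, is among those not analysed here.

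The tissue label was checked against marker genes. All 9 measured hepatocyte markers of 12 listed lay above the upper quartile of every array. Their summed level, taken as 2 to the power of the log2 values, was 63373 to 67657 in PD and 67697 to 68033 in PD.SHR4. Of the 9, 6 were above 0 and 3 below, with a median of 0.042, and 5 had overlapping arrays. The highest was Cyp2e1, also in the pericentral list, at 0.43, and the summed level was not taken without it. All 7 measured macrophage markers of 13 were below 0, 6 of them without overlap (85.7%, against 17.1% of all probe sets). The exception was Clec4f, at -0.079 ± 0.13 (SE) with overlapping arrays. Summed levels of the 7 were 5053 to 5821 in PD and 4166 to 4279 in PD.SHR4. Those of the 8 measured lymphocyte markers of 14 were 280 to 349 and 211 to 221, and Cd2 was among the dimmest 25% of probe sets on each array. The lymphocyte list was mixed, with 6 markers below 0 and 2, Cd2 and Cd4, above, from -2.01 for Gzmb to 0.20 for Cd2. Summed levels were also lower in PD.SHR4 without overlap for the 2 measured erythroid markers of 7, at 1887 to 2335 and 1268 to 1546. The same held for the 8 measured stellate cell and fibroblast markers of 10, at 939 to 1158 and 840 to 916. Of these 8, however, 5 were below 0 and 3 above (Des, Dcn and Rgs5), and 5 had overlapping arrays. Summed levels of the 2 measured cholangiocyte markers of 6 overlapped. In tissue RNA, fewer cells of a type and less RNA per cell cannot be told apart, and the part of these shifts in the differences of the enzymes was not tested. The 6 measured kidney markers of 7 had summed levels of 85.8 to 114 and 85.2 to 96.5.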

How the data were processed

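The deposited values are log2 expression, made by the authors, per the labels, with RMA (core-gene analysis in Affymetrix Expression Console). Partek is a further tool of the submitters' processing notes. Because RMA models background and equalises array distributions, low signals are compressed and shifts shared by most genes are reduced. The deposited distributions were not fully equal. Array medians were 5.21, 5.38 and 5.26 in PD arrays 1 to 3 and 5.25 and 5.21 in the congenic arrays. Centring each array on its median moved the median difference over the enzymes from 0.076 to 0.13. Software versions and the genome build: not given in the sources used here. Values cover 8797 probe sets on 5 arrays, with no detection calls, and the number of arrays limits precision. Probe sets were named by GEO's platform annotation, with symbols updated through RefSeq (7584 of 7603 with 1 symbol matched; 409 had several, 785 none). The brightest probe set stood for a gene, and none of the 38 enzymes had several.

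The comparison used lmFit and eBayes of limma 3.58.1 under R 4.3.3, two-sided, on all arrays without covariates, after a check on simulated data. Described genes were the 16 enzymes with the smallest p, the highest and lowest of each branch and, of each further list, those past the threshold and the 4 with the smallest p. Other genes of these lists are given where a count includes them. The members, lists and tests were chosen with earlier results of these data known. Alternative fits left out 1 array at a time or used a replicate block, a variance trend, a set without its dimmest 25% of probe sets, further quantile normalisation, median centring and array weights. No marker of endothelium was measured.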

Additional observations from a re-analysis of the deposited data

How the results depend on the processing

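The count of changed probe sets, 82, became 28, 55 and 18 in limma when PD array 1, 2 or 3 was left out, and 0 when either congenic array was (737 and 710 at an unadjusted p under 0.05). It was 163 with the replicate block, 151 with the variance trend, 149 without the dimmest probe sets, 100 after centring, 112 after quantile normalisation and 819 with array weights. Of the enzymes, 2 passed with the variance trend and 2 with array weights, Asl and Gpt both times, and 0 in the other 9 fits. Averaging the probe sets of a gene and a limit of 1.5-fold also gave 0 but say nothing on stability, since 0 enzymes had several probe sets and 0 passed without the limit. Of the other listed genes 1 passed, and 0 to 1 with an array left out, 4 with the replicate block, 5 with the trend, 4 without the dimmest probe sets, 3 after centring, 3 after quantile normalisation and 12 with array weights. The median of the glutamate and transaminase branch was 0.27 to 0.39 with an array left out, 0.41 after centring and 0.30 with array weights, and that of histidine 0.18 to 0.33 with an array left out. With an array left out the median had either sign in the methionine cycle (-0.17 to 0.13), tyrosine (-0.069 to 0.040), cysteine and taurine (-0.18 to 0.050), branched-chain (-0.064 to 0.19), ornithine (-0.20 to 0.033) and glyoxylate (-0.12 to 0.0079) branches. The sign turned for Ivd (-0.21 to 0.016), Cbs (-0.0080 to 0.22), Bhmt (-0.32 to 0.021) and Oat (-0.20 to 0.033) with an array left out, for Cbs with array weights (-0.020) and for Got2 after quantile normalisation (-0.0021). The other 21 enzymes described kept their sign in all 11 fits. Where the arrays of an enzyme did not overlap, leaving out an array could not turn its sign. Except where a fit used fewer arrays or probe sets, the cause of these changes was not tested. Same-numbered arrays deviated together at r = 0.050 and 0.082 over all probe sets, and PD array 3 with congenic array 1 at 0.047. With 2 congenic arrays the values of 1 mirror those of the other, so they cannot decide whether same-numbered arrays share more than a number. The replicate block changed no call of an enzyme. A fit without a congenic array assumes that the lone array varies like PD.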
